A study of Mus musculus with 12 samples.

Results

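The common effect of early-life low-dose cadmium (LDC) on the liver was taken as the difference between all 6 LDC arrays and all 6 control arrays with the gender label as a block. In this balanced design it equals the mean of the effects in females and in males, whether or not the sexes share it. All 12 arrays of the series entered it. They measured RNA from livers of C57BL/6J mice at 30 weeks of age, with 3 livers in each combination of gender (female, male) and exposure (control, LDC). The LDC mice came from dams given 100 nM cadmium chloride in drinking water from 1 week before mating, and the offspring drank the same solution from weaning to sacrifice. Control dams and offspring drank water without cadmium. Arrays of a group are biological replicates by their labels. The sources used here give neither the litters nor the hour at which the livers were taken, and the p-values measure the spread between these mice only.

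Cadmium is a metal with no known role in mammals that accumulates in liver and kidney, where metallothioneins bind it. The liver expresses many genes at different levels in females and males, largely because the sexes secrete growth hormone in different patterns, so an exposure is compared here with sex held constant. Many liver genes also follow the circadian clock, in which the factors BMAL1 (gene Arntl) and CLOCK drive the Per and Cry genes, whose proteins repress them in turn.

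All 12 arrays carried liver RNA. The summed signal of 8 hepatocyte markers on the array lay between 298808 and 374871 in every group, and the signals of Alb (albumin) and Apoa1 (the main HDL protein) had log2 fold changes of -0.06 (SE 0.06) and -0.12 (SE 0.05) between LDC and control mice. The median signal per array ranged from 94.9 to 110.1 and did not differ detectably with LDC (exact permutation within gender, two-sided, p = 0.59, smallest possible p = 0.005). The mean correlation of an array with the others of its group was 0.930 for LDC and 0.923 for control arrays (exact permutation test, two-sided, p = 0.015, adjusted over the 5 array measures 0.075). Markers of immune cells went opposite ways in the sexes. The median log2 fold change of the 14 macrophage and Kupffer cell markers was -0.88 in females and 0.68 in males, and that of the 8 neutrophil markers tested was -2.25 in females and 1.26 in males. In whole liver, fewer cells of a type and less RNA per cell cannot be told apart.

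No probe set passed the test of the common effect. Of 27022 probe sets tested with limma on log2 signal, 0 were called at an adjusted p under 0.05, a share of 0%, and 2 had an adjusted p under 0.1. Before adjustment, 2270 probe sets (8.4% of those tested) had a p under 0.05, 1240 higher in LDC mice (4.59%) and 1030 lower (3.81%), and 606 (2.24%) had a p under 0.01. The median standard error of a common log2 fold change was 0.21. All genes described here are therefore given by their values and not as called changes, and "leading" means only a small p.

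The effects in females and males showed no relation across the array. Their signs were the same in 13251 of 27022 probe sets, 49%. Across the 27022 probe sets, which are not independent replicates, the female and male log2 fold changes correlated with r = -0.04 and a rank correlation of -0.03. Among the 721 probe sets at an unadjusted p under 0.01 in females, 331 had the same sign in males, or 45.9%, and among the 847 such probe sets in males, 431 had the same sign in females, or 50.9%. Of the 33 probe sets called in females at an adjusted p under 0.05, 6 had the same sign in males, and of the 75 called in males, 36 had the same sign in females.

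A stricter description asks for 3 LDC arrays that all lie above, or all lie below, the 3 control arrays of the same gender, in the same direction in females and in males. This held for 267 probe sets (0.988% of those tested), 138 higher in LDC mice (0.511%) and 129 lower (0.477%), which named 106 and 111 genes. The same separation with opposite directions in the sexes was found for 343 probe sets (1.27%). Among the 267, the absolute common log2 fold change ranged from 0.11 to 1.92 with a median of 0.45, and 25 higher and 15 lower ones were at least 2-fold. Dim signals enter this set too. The probe set with the highest common fold change in it belongs to Uty, a gene on the Y chromosome, through female signals of only 1.28 to 54.3.

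**Figure D1:**
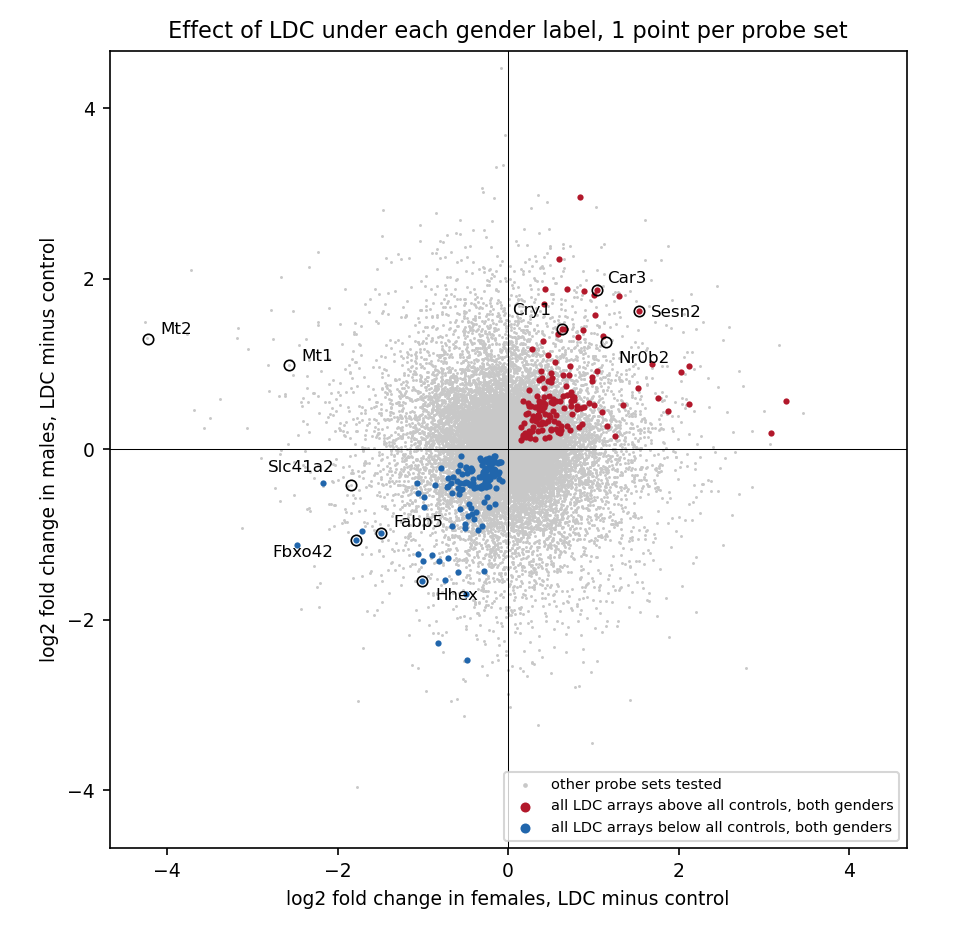
Log2 fold change of LDC against control in females (x axis) and in males (y axis), 1 point per probe set for the 27022 probe sets tested. The cloud is centred on 0 without a tilt; the 138 red and 129 blue points are probe sets whose LDC arrays all lay above or below the controls under both gender labels, and circled points are named genes, with Mt1 and Mt2 far to the left and above 0.

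The gene with the smallest p was Hhex, which encodes a homeobox transcription factor needed for liver development and retained in adult hepatocytes. Its signals were 5740, 6958 and 7405 in control females and 4001, 3396 and 2691 in LDC females. In control males they were 5097, 9407 and 10227, and in LDC males 2075, 2831 and 3355. Every LDC liver lay below every control liver of its own gender. The common log2 fold change was -1.28 (SE 0.18, limma adjusted p = 0.0759), 2.42-fold lower, with -1.01 in females and -1.55 in males. The male effect alone passed (adjusted p = 0.0153), and the effects of the sexes did not differ detectably (difference -0.54, SE 0.34, adjusted p = 0.618). Its adjusted p lay between 0.0191 and 0.563 over 25 alternative fits and was under 0.05 in 6 of them.

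Fabp5, a cytoplasmic fatty acid carrier, was 2.36-fold lower. Its signals were 22253, 9835 and 18310 in control females and 7725, 6131 and 3784 in LDC females. In males they were 5623, 3801 and 5562 without and 2355, 3133 and 2072 with LDC. The groups did not overlap under either gender label, and control females 1 and 3 stood far above the other 10 arrays. The common log2 fold change was -1.24 (SE 0.21, adjusted p = 0.142) by this probe set and -1.34 (SE 0.24, adjusted p = 0.173) by the second one, whose groups did not overlap either. Fabp5 is also expressed by macrophages, whose summed marker signal in females was 25892 to 70715 without and 10045 to 50207 with LDC. In males the sum was 21986 to 22468 without and 30518 to 44103 with LDC. The sums of the females overlapped, with the lowest and the highest both lower with LDC, as Fabp5 was, while in males all sums were higher with LDC and Fabp5 was lower. The part of macrophages in the Fabp5 difference was not tested.

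Among the other lower genes with the smallest p were a pair of transporter genes. Slco2a1, the prostaglandin transporter, had signals of 2379 to 2482 in control females and 1849 to 2110 in LDC females, and 1748 to 1940 in control males against 1141 to 1296 in LDC males. These were narrow groups without overlap, with a common value of -0.45 (SE 0.08, adjusted p = 0.206), although its other 3 probe sets were dimmer and overlapped. Slc41a2, a magnesium transporter, had a common log2 fold change of -1.13 (SE 0.23, adjusted p = 0.237), with -1.84 in females and -0.42 in males (difference 1.42, SE 0.30, adjusted p of the difference 0.0838). Its signals were 1662 to 2448 in control females and 468 to 589 in LDC females, whereas control and LDC males overlapped.

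Gstp1 and Prdx4, also among the leading lower genes, showed small differences in both sexes. Gstp1, a glutathione transferase, had signals of 20328 to 23973 in control and 16935 to 19992 in LDC females, and of 49767 to 53748 in control and 36946 to 41096 in LDC males. Together this gave a common log2 fold change of -0.33 (SE 0.06, adjusted p = 0.228). Prdx4, a peroxidase of the endoplasmic reticulum, had 7707 to 8738 against 6612 to 6860 in females and 6426 to 6879 against 4922 to 5652 in males. Its common log2 fold change was -0.30 (SE 0.06, adjusted p = 0.228), and 1 of its 3 probe sets separated the groups. The list of NRF2 targets and antioxidant enzymes, which holds Gstp1 but not Prdx4, went both ways. Of its 22 genes tested, 2 were higher and 2 lower at an unadjusted p under 0.05 (18.2%, against 8.87% of the 12820 named genes). The median log2 fold change of the list was -0.0005. The lower ones were Gstp1 and Gsr, which regenerates reduced glutathione (-0.24, SE 0.07), and the higher ones were Gsta2, another glutathione transferase (0.90), and Slc7a11, a cystine importer (1.19). All but Gstp1 were named after their values were seen. When 1 array was left out, the value of Gsta2 ranged from 0.55 to 1.05. Slc7a11 passed the filter in only 18 of 25 alternative fits, with an adjusted p of at least 0.51.

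C9, a component of the complement membrane attack complex, had a common log2 fold change of -0.48 (SE 0.10, adjusted p = 0.228). Ulk1, a kinase that starts autophagy, had -0.51 (SE 0.11, adjusted p = 0.271). Fbxo42, a substrate receptor of a ubiquitin ligase, had -1.43 (SE 0.28, adjusted p = 0.228). BC004004 had -0.40 (SE 0.09, adjusted p = 0.251), with -0.16 in females and -0.64 in males. None of these overlapped between LDC and control mice under either gender label, by the probe set given. For Fbxo42 this was 1 of its 3 probe sets, with LDC males from 99.8 to 360.7, for Ulk1 1 of 2, and for BC004004 1 of 5, of which 4 had a lower and 1 a higher common value.

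Among the leading higher genes, Efna1, a membrane-bound ligand of Eph receptors, was seen by both of its probe sets. The dimmer one gave signals of 412, 577 and 583 in control females and 773, 860 and 931 in LDC females, and 377, 449 and 411 in control males against 747, 796 and 721 in LDC males. All LDC livers lay above all control livers, whichever the gender. Its common log2 fold change was 0.80 (SE 0.12, adjusted p = 0.0759). The brighter probe set gave 0.52 (SE 0.11, adjusted p = 0.237), also without overlap within a gender.

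Homer2, a scaffold protein, had nearly equal effects in the sexes, with a log2 fold change of 0.56 in each. Its signals in females were 827 to 889 without and 1108 to 1356 with LDC, and in males 806 to 1006 without and 1136 to 1567 with LDC. The common log2 fold change was 0.56 (SE 0.10, adjusted p = 0.173), and its second probe set gave 0.62 (SE 0.13) without overlap. Sesn2, a stress-induced sensor of leucine that restrains mTORC1, had signals of 159, 186 and 61.1 in control females and 312, 321 and 436 in LDC females. In males it had 245, 161 and 56.9 in control and 406, 442 and 369 in LDC livers. Both sexes together gave a log2 fold change of 1.58 (SE 0.33, adjusted p = 0.237), 2.99-fold, but the dimmer probe set of Sesn2 gave 0.10 (SE 0.24).

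Srm, Ncl and Atp6v0d2 were also among the leading higher genes. Srm, spermidine synthase, had a log2 fold change of 0.62 (SE 0.12, adjusted p = 0.228), with 754 ± 37.4 (SD, n = 3) in control and 1287 ± 187 in LDC females and 943 ± 173 in control and 1305 ± 224 in LDC males. Ncl, nucleolin of the nucleolus, had 0.31 (SE 0.07, adjusted p = 0.251), without overlap by its brightest probe set, the only one of 4 to separate. Atp6v0d2, a subunit of the vacuolar proton pump, had 0.88 (SE 0.18, adjusted p = 0.237). Its control signals were 1048 to 1375 in females and 181 to 277 in males, against 1367 to 3376 and 386 to 496 with LDC, so that the females overlapped slightly.

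The remaining higher genes by p of the brightest probe set were 2310067E19Rik, Fign and Sugct. 2310067E19Rik had 0.69 (SE 0.12, adjusted p = 0.130), with 517 to 760 in control and 1013 to 1083 in LDC females and 539 to 656 in control and 799 to 998 in LDC males. Fign, a microtubule-severing ATPase, had 0.65 (SE 0.14, adjusted p = 0.243). Sugct, an enzyme of glutarate breakdown, had 0.66 (SE 0.14, adjusted p = 0.271) by its brightest probe set, which overlapped in females. The dimmer probe set of Sugct went the other way in both sexes, with a common value of -0.27 (SE 0.15).

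**Figure D2:**
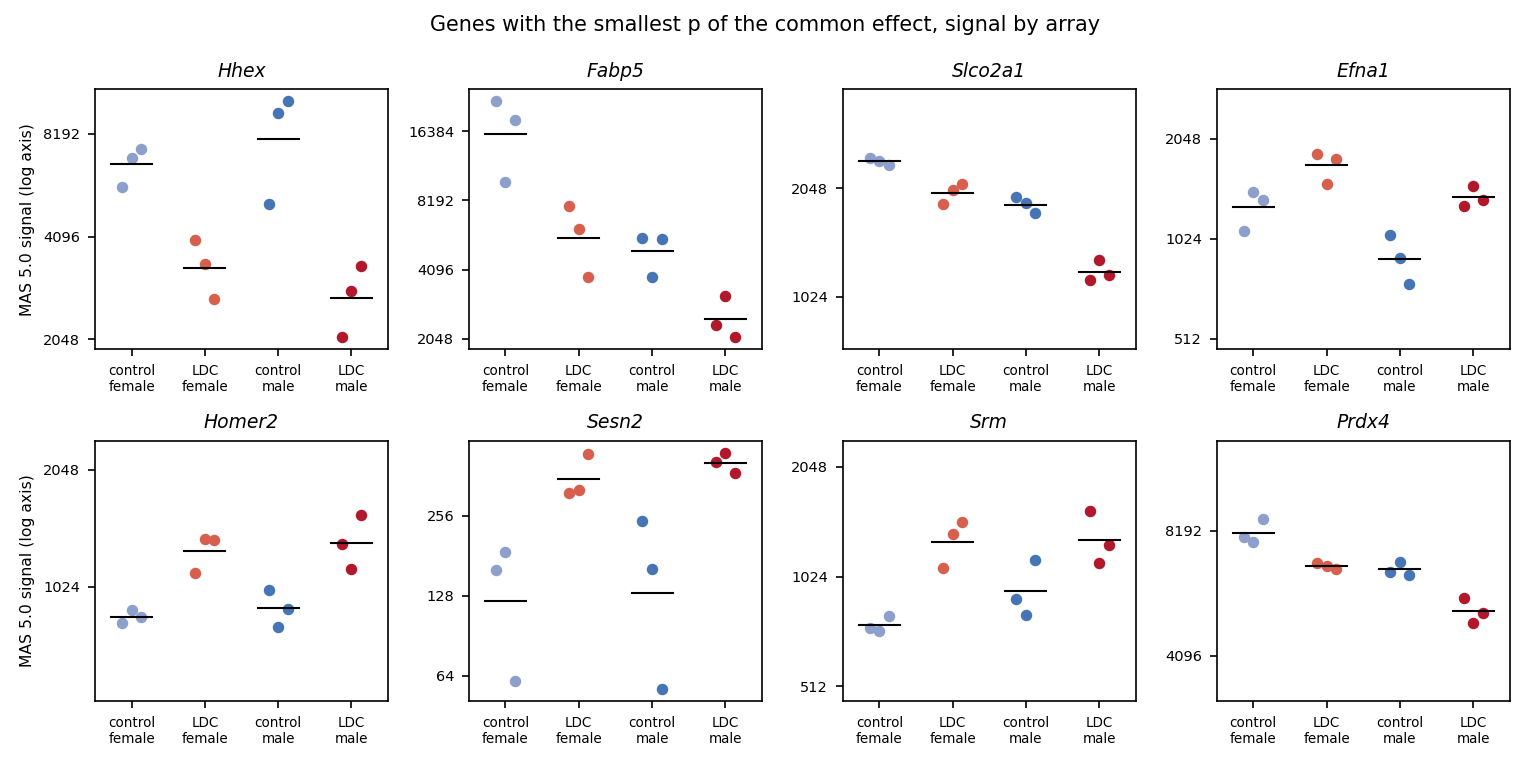
MAS5 signal on a log axis for 8 genes with small p of the common effect, 1 point per array (n = 3 per group) with a bar at the geometric mean. Hhex, Fabp5, Slco2a1 and Prdx4 lie lower, and Efna1, Homer2 and Sesn2 higher, in all LDC arrays than in all controls of the same gender; Srm overlaps in males.

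Other leading genes separated by only 1 of their probe sets, such as Slco2a1 and Ncl (1 of 4 each) and BC004004 (1 of 5). Of the 106 higher and 111 lower genes in the set of 267, 6 and 3 were named by 2 probe sets each. The agreement of their probe sets follows from this selection and is no separate support. These genes were picked out here after their values were seen. Efna1, Homer2, Car3 and Fabp5 are among them. The others are Hpgd, Tprkb, Ednrb, Rrs1 and Tab2.

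Hpgd, which breaks down prostaglandins once they are inside the cell, had signals of 11407, 11404 and 10077 in control and 11660, 12666 and 12647 in LDC females by its bright probe set. In males it had 6747, 6090 and 5283 without and 8656, 8613 and 9408 with LDC. The gap was narrow in females and wide in males, and the common log2 fold change was 0.37 (SE 0.08, adjusted p = 0.290), with 0.40 (SE 0.14) by the dim probe set. Slco2a1, which brings prostaglandins into cells, had the opposite sign.

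Tab2, an adaptor of the kinase TAK1 in inflammatory signalling, had 4639, 3307 and 5060 in control and 3085, 2172 and 2680 in LDC females, and 2712, 3179 and 3506 in control and 2576, 2396 and 2422 in LDC males. All LDC livers lay below the controls of their gender, with a common log2 fold change of -0.52 (SE 0.12) by each probe set (adjusted p = 0.290 for the brighter and 0.271 for the dimmer). Rrs1, a ribosome assembly factor, had -0.43 (SE 0.10, adjusted p = 0.290) and -0.52 (SE 0.12, adjusted p = 0.290). Tprkb, a part of the complex that modifies transfer RNA, had 0.33 by both (SE 0.08, adjusted p = 0.302 and 0.290), and Ednrb, an endothelin receptor, had 0.42 (SE 0.14) and 0.37 (SE 0.20).

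An unadjusted p under 0.05 in females and again in males was found in the same direction for 155 probe sets (0.574%) and in opposite directions for 198 (0.733%). When a 2-fold difference in each was also asked for, 12 probe sets met it in the same direction (0.0444%), 9 higher (0.0333%) and 3 lower (0.0111%), and 23 in opposite directions (0.0851%). The 12 named 11 genes. Besides Hhex, Sesn2 and Fbxo42 they were Usp2, Nr0b2, Lrtm1, Car3, Zbtb43, Nf2, Mcc and Zfp64. For Zbtb43, Nf2, Mcc and Zfp64 the probe set was dim, with a mean log2 signal between 5.72 and 6.07 near the filter at 5.60, and the brightest probe set of the same gene gave common log2 fold changes of only 0.00, 0.22, 0.27 and 0.06.

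Car3, the muscle-type carbonic anhydrase that is abundant in rodent liver and adipose tissue, split between its probe sets. One gave 1695, 1767 and 1592 in control females, 4344, 3742 and 2574 in LDC females, 86.1, 53.1 and 93.4 in control males and 468, 257 and 175 in LDC males. Its groups did not overlap, and its common log2 fold change was 1.46 (SE 0.24, adjusted p = 0.130). A second probe set gave 1.90 (SE 0.39, adjusted p = 0.228), also without overlap. The brightest one, at 42979 to 61462, gave 0.04 (SE 0.07), with 0.18 in females and -0.10 in males. The next brightest gave 0.14 (SE 0.12), with 0.48 in females and -0.21 in males. The shared difference therefore belongs to the dimmer part of the Car3 probe sets only. Of the 5 adipocyte markers on the array, which include Car3, Adipoq, Lep and Retn were under the filter, and Fabp4 ranged from 604 to 1477 over the 12 arrays.

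Nr0b2 encodes SHP, a nuclear receptor that represses bile acid synthesis. Its signals were 939, 3213 and 464 in control females and 3040, 2557 and 1971 in LDC females, and 1089, 756 and 805 in control males against 2064, 1616 and 2730 in LDC males. The males did not overlap, and the females overlapped through control female 2 alone. The common log2 fold change was 1.21 (SE 0.33, adjusted p = 0.330). When 1 array was left out it ranged from 0.93 to 1.55. The highest value came without control female 2, with an adjusted p of 0.0356, under 0.05 in only this 1 of 25 alternative fits.

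Circadian clock and clock output genes had the highest share of members with a small p among the 23 gene lists. Of 20 tested, 10 were higher and 2 lower at an unadjusted p under 0.05, that is 60%, against 8.87% of the 12820 named genes (4.28% higher and 4.59% lower). None of the 20 passed the adjusted test. Their median log2 fold change was 0.52, with 0.42 in females and 0.43 in males, beside -0.01 over all named genes, and 17 of 20 had the same sign in the sexes, against 47.8%. Without control female 3 the median over the 20 genes was 0.37. Over all 45 probe sets of these genes, 21 had an unadjusted p under 0.05. With no gender block the counts were 6 higher and 0 lower. In an unmoderated test of exposure with the sexes pooled they were 3 and 0.

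The activators of the loop lay lower on average. Arntl, which encodes BMAL1, had 403, 442 and 860 in control and 503, 255 and 292 in LDC females, and 131, 118 and 303 in control and 131, 141 and 84.7 in LDC males. Its common value was -0.60 (SE 0.28, unadjusted p = 0.0462), with overlap in both sexes. It ranged from -0.73 to -0.42 when 1 array was left out. Clock had -0.31 (SE 0.13, unadjusted p = 0.0313), with -0.15 in females and -0.47 in males, and without overlap in males only. Without control female 3, 0 clock genes were lower at an unadjusted p under 0.05.

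The repressors that BMAL1 and CLOCK drive lay higher. Cry1 had 286, 246 and 367 in control and 485, 388 and 516 in LDC females, and 183, 318 and 371 in control and 664, 646 and 940 in LDC males. It was the only one of the 20 whose groups did not overlap under either label. The common log2 fold change was 1.02 (SE 0.21, adjusted p = 0.228), and the male effect of 1.41 passed alone (adjusted p = 0.0448). Per3 had 593, 203 and 101 in control and 301, 885 and 606 in LDC females, and 477, 459 and 123 in control and 789, 1080 and 1187 in LDC males, with a common log2 fold change of 1.49 (SE 0.42, adjusted p = 0.359). Per2 had 1.19 (SE 0.47, adjusted p = 0.500), where control female 3 stood at 59.7 and the other 11 arrays between 472 and 1173. Without control female 3 the value for Per2 was 0.65. Per1 and Cry2 had 0.28 (SE 0.21) and 0.25 (SE 0.25), and without control female 3 0.17 and 0.12. Of the REV-ERB receptors, which repress Arntl, Nr1d2 had 0.36 (SE 0.11, adjusted p = 0.393), whereas Nr1d1 had 2.03 in females and -1.02 in males.

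The output factors that bind D-boxes and other output genes mostly lay higher as well. Dbp had 1.02 (SE 0.46), with 1.79 in females and 0.25 in males, and 0.56 without control female 3. Tef had 0.53 (SE 0.17) and Hlf had 0.30 (SE 0.12). Nfil3, the repressor that competes for the same sites, had 0.58 (SE 0.24). Wee1, a cell cycle kinase under clock control, had 404, 210 and 248 in control and 306, 445 and 543 in LDC females, and 361, 555 and 199 in control and 957, 1029 and 1056 in LDC males. Its common log2 fold change was 1.08 (SE 0.26, adjusted p = 0.302). Usp2, a deubiquitinase, had 1.19 (SE 0.34, adjusted p = 0.359) and lay far higher in males, at 849 to 4082, than in females, at 109 to 777.

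Clock genes also differed between mice of a single group. Control female 3 had the lowest signal of its group for 11 of the 20 genes, control male 3 for 12, LDC female 1 for 13 and LDC male 1 for 13, while control female 1 and LDC female 3 were each highest for 11, and control male 1 and LDC male 3 each for 12. Clock gene levels depend on the hour of the day. Whether the groups were sampled at the same hours is stated in neither the labels nor the methods. The part of the hour in these differences was not tested.

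**Figure D3:**
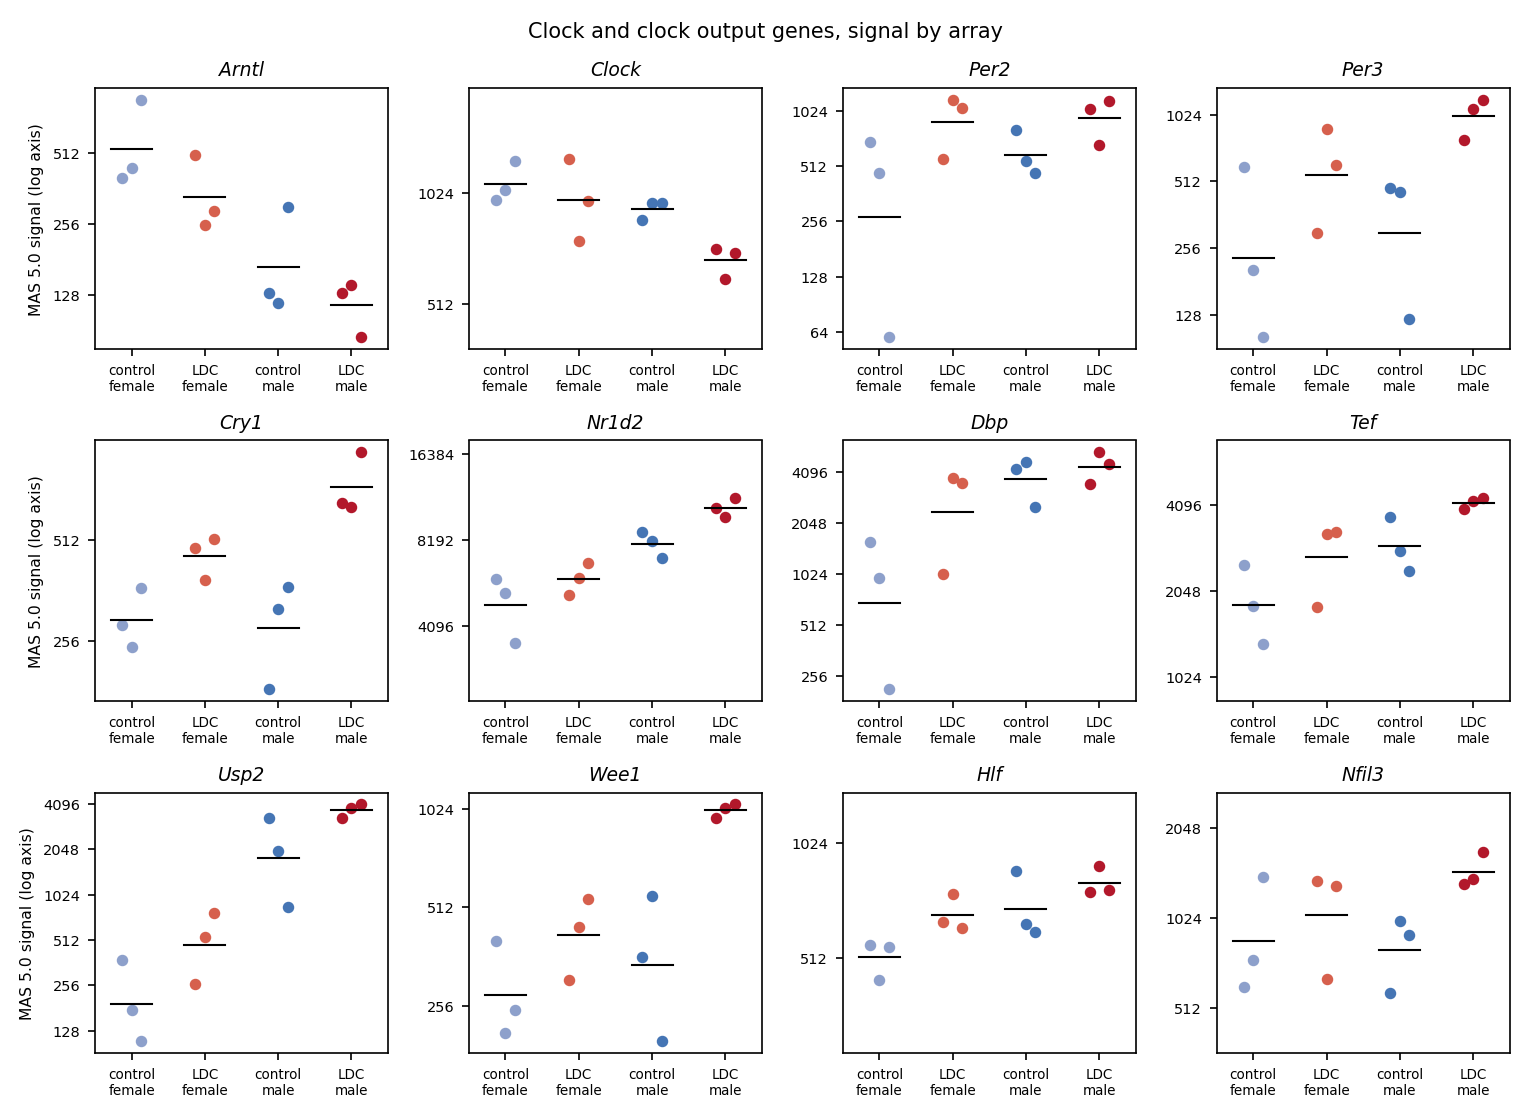
MAS5 signal on a log axis for the 12 clock and clock output genes with an unadjusted p under 0.05, 1 point per array (n = 3 per group) with a bar at the geometric mean. Arntl and Clock lie lower and the other 10 genes higher with LDC on average; among them Cry1 alone separates the groups under both gender labels, and control female 3 is low for Per2 and Dbp.

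The letters to which clock factors bind were looked up in the promoters, taken from RefSeq on GRCm38.p6 as 250 bases before to 50 after each start, on both strands. The E-box CACGTG, bound by BMAL1 and CLOCK, was found in 7.15% of 32851 promoters, and in a promoter of 8.09% of genes. It was in 4 of the 17 clock genes with a promoter at hand (Ciart, Cry1, Per1 and Tef) and in 3 of the 22 named genes with one (Cry1, Nr0b2 and Prdx4). The D-box TTATGTAA was in 0.938% of promoters (1.11% of genes) and in that of Per3. Its second form TTACGTAA was in 0.119% (0.126% of genes) and in those of Homer2 and Nf2. The stretches below are examples from genes higher on average in LDC mice of both sexes. The E-box or D-box is in capitals, 5′ to 3′ on the gene's strand. Sites of Ciart, Per1 and Nf2, which were also higher in both sexes, and further sites of Tef and Per3 are not shown. Nor is the E-box of Prdx4, which was lower in both sexes.
Cry1, chr10:85185082-85185141, minus strand: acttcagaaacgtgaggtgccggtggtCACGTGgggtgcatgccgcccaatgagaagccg
Nr0b2, chr4:133553154-133553213, plus strand: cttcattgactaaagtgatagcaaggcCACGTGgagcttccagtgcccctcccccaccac
Tef, chr15:81802519-81802578, plus strand: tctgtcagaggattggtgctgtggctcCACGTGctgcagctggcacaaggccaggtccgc
Per3, chr4:151044789-151044850, minus strand: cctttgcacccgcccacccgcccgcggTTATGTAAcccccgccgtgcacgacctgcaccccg
Homer2, chr7:81707001-81707062, minus strand: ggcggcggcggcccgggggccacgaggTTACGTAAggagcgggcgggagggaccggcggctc
The E-box lies 60 bases before the start in Cry1 and 195 in Nr0b2. The metal response element, bound by the zinc sensor MTF1, was searched as TGCACNC and TGCGCNC. These were found in 4136 and 5055 of the 32851 promoters (14.2% and 17% of genes), and both forms occur in Mt1 and Mt2. Of the 22 named genes, 2 held the first form and 7 the second. The antioxidant response element, searched as TGANNNNGC, was in 41.3% of promoters (45% of genes) and in 13 of the 22. A match describes the letters only and is no evidence of binding, and overlaps between motifs were not removed.

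Several other lists had members at an unadjusted p under 0.05 mostly in 1 direction, and 0 that passed the adjusted test. Of the 12820 named genes, 4.28% were higher and 4.59% lower at that level. The sexes had the same sign in 47.8% of them (22.2% higher and 25.6% lower). The list members named from here on were chosen after their values were seen. Fatty acid oxidation and PPAR alpha targets had 9 higher and 0 lower of 26, with a median log2 fold change of 0.17. Aldh3a2, a fatty aldehyde dehydrogenase, separated the groups in both sexes (0.46, SE 0.13, adjusted p = 0.359). Acot3 and Acot4, peroxisomal acyl-CoA thioesterases, counted among the 9 through the males alone, with 3.31 and 1.69 in males and -0.14 and 0.01 in females.

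Genes of xenobiotic metabolism had 7 higher and 0 lower of 21, with a median of 0.16. Of the 21, 12 had the same sign in the sexes, all higher, beside 47.8% of named genes with the same sign (22.2% higher). Cyp2b10, the classical target of the receptor CAR, had 1168, 1039 and 660 in control and 1481, 1830 and 1364 in LDC females, and 435, 236 and 321 in control and 507, 481 and 443 in LDC males. The groups did not overlap, and the common log2 fold change was 0.65 (SE 0.17, adjusted p = 0.302). Cyp2b9 had 1.04 (SE 0.24, adjusted p = 0.290) and Cyp3a25 had 0.22 (SE 0.07, adjusted p = 0.380), both without overlap. Nr1i3, the gene of CAR, had 0.40 (SE 0.13).

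In the bile acid list, 10 of 21 genes had the same sign in the sexes, beside 47.8% of all named genes. At an unadjusted p under 0.05, 5 were higher and 0 lower (23.8%, against 8.87%). They were Nr0b2, the exporters Abcc2 (0.37, SE 0.12) and Abcc3 (0.37, SE 0.09), the importer Slco1a4 (0.76, SE 0.17) and Fgfr4, the receptor of the gut hormone FGF15 (0.28, SE 0.12). Abcc3 separated the groups in both sexes, with 3660 to 3995 in control and 4085 to 5912 in LDC females and 4433 to 5197 in control and 5846 to 6371 in LDC males. Amino acid, urea and one-carbon genes had 7 higher and 2 lower of 22, among them Asl of the urea cycle (0.31, SE 0.09), with log2 fold changes of 0.31 in females and 0.30 in males.

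On the lower side, proteasome subunits had 0 higher and 6 lower of 29 (20.7%, against 8.87% of named genes), with a median of -0.14. Of the 29, 16 had the same sign in the sexes, all lower, beside 47.8% of named genes with the same sign (25.6% lower). The differences were small and carried mostly by males (median -0.25, against -0.05 in females). Psma2, a subunit of the core particle, had -0.20 (SE 0.07) and Psmb3 had -0.22 (SE 0.08), both without overlap. Acute phase genes had 0 higher and 6 lower of 22, with a median of -0.17, and here females carried most (-0.32, against -0.03 in males). Stat3, the factor that relays interleukin-6, had -0.43 (SE 0.13). Cholesterol synthesis had 0 higher and 3 lower of 17 (17.6%, against 8.87% of named genes), with Dhcr7, its last enzyme, at -0.49 (SE 0.12, adjusted p = 0.302).

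Some lists showed no shared direction. Of 21 interferon response genes 0 had an unadjusted p under 0.05, and their medians were -0.46 in females and 0.45 in males. Of 29 oxidative phosphorylation genes 0 had one either, with a median of 0.03. The metallothioneins, which cadmium is known to induce, lay in opposite directions in the sexes. Mt1 had a log2 fold change of -2.57 in females and 0.98 in males, a common value of -0.79 (SE 0.49, adjusted p = 0.698), and Mt2 had -4.23 and 1.30, a common value of -1.47 (SE 0.75, adjusted p = 0.622). A mean over the sexes therefore describes neither of them. In the heavy metal list as a whole, 1 gene was higher (Hsph1, a heat shock protein, 0.67, SE 0.23) and 1 lower (Slc39a14, a zinc and manganese importer, -0.34, SE 0.10) of 14. This was 14.3%, against 8.87% of named genes.

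**Figure D4:**
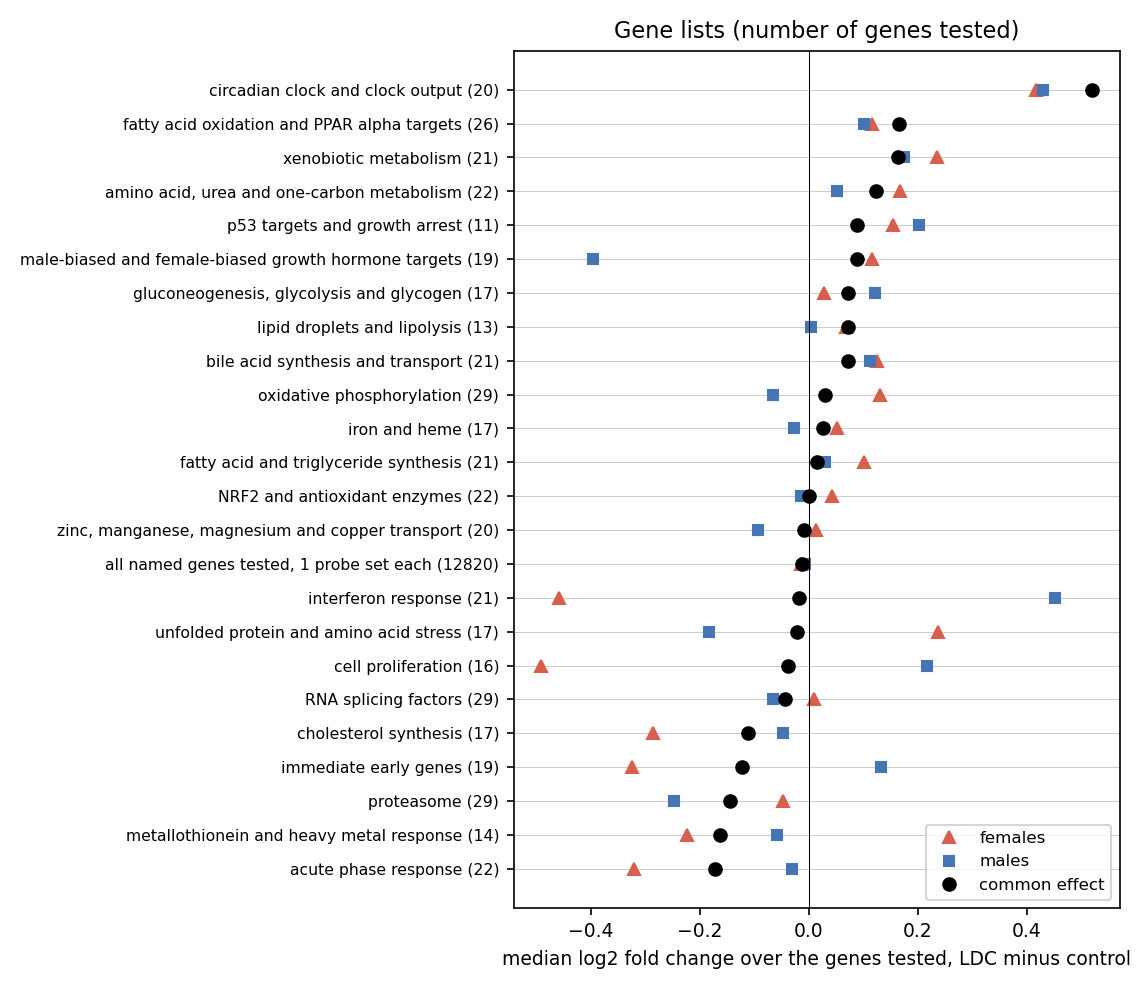
Median log2 fold change of LDC against control over the genes tested of each list (number in brackets), for females, males and the common effect. The clock list has the common median furthest from 0 among the 23 pathway lists, at 0.52, with females and males close together, whereas interferon response genes lie at -0.46 in females and 0.45 in males.

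The way the spread is estimated moved the count of calls. A fit with 1 mean per group also takes the difference between the LDC effects of the sexes out of the spread. It called 12 probe sets for the mean of both effects, 5 higher and 7 lower. Of these, 8 had the same sign in females and males, and they named Hhex, Slco2a1, BC004004, Slc41a2, Efna1 and Car3 (with 2 probe sets) and 1 probe set with no gene. Without control female 2 there were 11 calls, 7 higher and 4 lower, all with the same sign. They were Hhex, C9 and Fabp5 (with 2 probe sets) on the lower side, and Efna1, Nr0b2, Papss2 (which makes the sulfate donor), Hgd (of tyrosine breakdown), Depp1 (with 2 probe sets) and 1 probe set with no gene on the higher side. Without control male 1, 1 probe set was called, that of Hhex.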

How the data were processed

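RNA from 12 livers was measured on Affymetrix mouse genome arrays. The deposited values are linear signal intensities that the authors obtained from GeneSpring with its MAS5 algorithm, and no detection calls came with them. Each array's trimmed mean is 500.0. All value columns were matched to a sample by label.

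After leaving out 64 control probe sets of 45101, intensities were log2 transformed with no further scaling. The 27022 probe sets whose mean log2 signal reached the 40th percentile (5.60, or 48.6 on the linear scale) entered the tests, and 22744 of them name a single gene (12820 genes), 634 several and 3644 none. Symbols came from the platform's probe table, updated through a RefSeq gene table of GRCm38.p6. limma 3.58.1 in R 4.3.3 fitted gender and exposure (9 residual and 5.98 prior degrees of freedom, with an intensity trend). A fit with 1 mean per group gave the effect in each gender and their difference. P-values were adjusted over all probe sets by Benjamini and Hochberg, with calls at an adjusted p under 0.05. The code was tested on simulated data.

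Named are the 10 genes in each direction with the smallest p by their brightest probe set, among those with the same sign in the sexes. Added were every gene that met 2-fold and an unadjusted p under 0.05 in each gender, Mt1, Mt2, Alb and Apoa1. Each stands by its brightest probe set unless another met the criterion. Dimmer probe sets with a small p, such as that of Nfib (0.48, limma adjusted p = 0.173), did not enter the ranking. Other list members and probe sets were named after their values were seen. A list's gene stands by its brightest probe set. The comparison, members and lists were chosen with earlier results of these data known.

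Array measures were compared by an exact permutation test within gender over 400 arrangements. Alternatives were the filter, normalization, an offset of 32, the moderation, array weights, 1 probe set per gene and the model. Others were the replicate number as a block, leaving out each array, and an unmoderated t-test of exposure with the sexes pooled. The paper names no test for its arrays. Plots used matplotlib 3.10.9 (Python 3.11.15).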

Additional observations from a re-analysis of the deposited data

Results flagged for a closer look

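The 131 probe sets looked at were those of the named genes, the clock list and selected members of the other lists. These members had an unadjusted p under 0.05 with the same sign in the sexes, or groups that did not overlap in the same direction. After taking out the gender means, the 262 sets of 6 LDC or 6 control arrays held 24 in which 1 array lay apart. The share of its gap in the whole range exceeded the 95% critical value of Dixon's test. Chance alone gives about 5% of such sets. Control female 3 was the array in 7 of the 24, with gap shares of 0.672 for Per2, 0.804 for Rora, 0.664 for Dbp, 0.742 for Gsta2, 0.747 for Cyp3a25, 0.663 for Sult1d1 and 0.762 for Hp. LDC female 1 had 0.72 for Per1, 0.649 for Fads2, 0.756 for Dgat2 and 0.71 for Pcx. LDC male 1 had 0.714 for 2310067E19Rik, 0.713 for C9, 0.689 for Slc2a2 and 0.644 for Dusp1. Control male 3 had 0.703 for Srm and 0.664 for Cyp51, control male 2 had 0.705 for Car3 and 0.649 for Cdkn1a, and control male 1 had 0.783 for Fgfr4. LDC female 2 had 0.709 for Nfil3, LDC female 3 had 0.792 for Herpud1 and 0.688 for Cd14, and LDC male 3 had 0.633 for Cyp2b9.

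The effects in males and females differed at an adjusted p under 0.05 by the limma interaction in 48 of the 27022 probe sets tested (0.178%). Among the 131 probe sets looked at there were 3 such genes. Most members of the other lists entered the 131 only with the same sign in the sexes. The count therefore does not measure how often effects differ in the lists. The male minus female log2 fold change was 3.55 for Mt1 (adjusted p = 0.000203), 5.53 for Mt2 (adjusted p = 0.000133) and 1.68 for Acot4 (adjusted p = 0.0441).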

How the results depend on the processing

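The count of 0 calls became 1 (Hhex, lower, same sign in the sexes) with no filter, under a 20th percentile filter and after median centring, and 12 (5 higher, 7 lower, 8 with the same sign) with 4 group means. Over the fits that left out 1 array the calls ranged from 0 to 11 (0 to 7 higher, 0 to 4 lower, 0 to 11 with the same sign), with 11 without control female 2 and 1 without control male 1. The genes 2-fold in each gender numbered 11, against 32 with no filter, 21 under the 20th and 6 under the 60th percentile filter, 6 when each gene had 1 probe set, and 7 to 20 over the fits that left out an array. Probe sets that did not overlap numbered 133 (56 higher, 77 lower) with 1 probe set per gene, and 402 to 638 (205 to 362 higher, 192 to 283 lower) without an array, where 2 arrays face 3 and separate more easily. Probe sets at an unadjusted p under 0.05 numbered 1128 with 1 probe set per gene and 1463 with no gender block. They numbered 1516 by the t-test with the sexes pooled (0 after adjustment), and 1959 to 2518 without an array. Of the clock genes, 6 were higher with no gender block, 3 by the t-test with the sexes pooled and 7 to 11 without an array. On the lower side there were 0 with no gender block and by the t-test, 1 without the intensity trend, with 4 group means and with either replicate block, and 0 to 2 without an array. Bhlhe40, at 0.16, ranged from -0.0295 to 0.435 when 1 array was left out, turning to -0.0117 without control female 3 and reaching its lowest without control male 3. The cause of these shifts was not tested, apart from those that follow from testing fewer probe sets or arrays. With the replicate number as a block, 0 probe sets were called and 2194 had an unadjusted p under 0.05, and with pairs within gender 0 and 2078. Arrays of the same number correlated by -0.028 to 0.059 after removing group means. For female replicate 1 the value was 0.059, against -0.059 to 0.005 with arrays of other numbers. With 3 arrays per group this cannot decide whether the number pairs the mice, and the labels do not say. Among the values of the 131 selected probe sets under an alternative, 3240 kept their direction and side of the threshold and 14 passed it only there.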
